A study of Mus musculus with 12 samples.

Results

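10 genes for glutathione transferases and other redox enzymes were followed on gene arrays of mouse leukaemias. They were Gsto1, Gstm1, Gstp1, Mgst1, Gclc, Gclm, Gsr, Gpx1, Txnrd1 and Cat. They make up 10 of the 22180 genes with a probe set annotated to 1 symbol, and all 10 were among the 19152 genes that passed a filter on low values. The set was chosen by name as a pathway, with array results of these samples known, among them the lower Gsto1 value of Dnmt3b knock-in leukaemias in c-kit-positive cells. That difference is therefore given as a description, with no p-value, and supports nothing here. Each of the 10 had exactly 1 probe set annotated to its symbol alone.

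The arrays held cells of 6 leukaemias in which MLL-AF9, an oncogenic fusion protein found in acute myeloid leukaemia, was present in every sample. The labels put leukaemias 81, 83 and 85 in a Dnmt3b knock-in group, meant to overexpress the de novo DNA methyltransferase Dnmt3b, and leukaemias 73, 75 and 79 in a wild-type group. Flow cytometry split each leukaemia by the surface receptor c-kit, which immature blood cells carry, so that 4 groups of 3 arrays resulted: c-kit-positive and c-kit-negative cells of either genotype. The labels name bone marrow in some fields and leukaemic spleen in another, and the age, the strain, the promoter behind the knock-in and any pooling of animals are not given in the sources used here.

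Glutathione is a small thiol that cells use to reduce peroxides and to tag reactive compounds for export. Glutamate-cysteine ligase makes its precursor, glutathione peroxidases and transferases spend it, and glutathione reductase returns the oxidised form at the cost of NADPH. Thioredoxin reductase runs a parallel thiol system, catalase splits hydrogen peroxide directly, and several of these genes are known targets of the transcription factor NRF2. In myeloid cells the same chemistry stands beside the NADPH oxidase, which makes superoxide on purpose.

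The sort was visible in the RNA, since Kit was 1.41 higher on the log2 scale in c-kit-positive than in c-kit-negative cells (limma, adjusted p = 7.78e-06). The knock-in was not visible in the Dnmt3b probe set, whose leukaemia means were 6.39 ± 0.085 in the leukaemias labelled knock-in and 6.36 ± 0.12 in the wild-type leukaemias (log2, SD, n = 3 each, adjusted p = 0.964). Whether that probe set reads a knock-in transcript was not tested, so every genotype direction here rests on the labels alone. Leukaemia 81 stood apart in Xist, a transcript of the inactive X chromosome, with a mean of 6.29 against 10.4 to 11.3 in the other 5 leukaemias. The mean of 15 late neutrophil markers differed along both comparisons. In c-kit-positive cells it was 8.74 to 8.98 in knock-in leukaemias, against 7.55 to 8.19 in wild-type leukaemias. In c-kit-negative cells it was at least 9.83 in knock-in leukaemias, against 8.55 to 9.31 in wild-type leukaemias. Primary granule markers were 9.52 to 10.52 in c-kit-positive and 8.35 to 9.29 in c-kit-negative arrays, with the genotypes overlapping in both. Monocyte markers in c-kit-positive cells were 6.3 to 6.45 in knock-in leukaemias, against 6.57 to 6.78 in wild-type leukaemias, and the genotypes overlapped in c-kit-negative cells, at 6.97 to 7.64. Progenitor markers did not overlap in either fraction. They were 7.22 to 7.42 in knock-in and 7.43 to 8.04 in wild-type c-kit-positive cells, and 6.82 to 7.18 in knock-in and 7.32 to 7.38 in wild-type c-kit-negative cells. Single progenitor markers differed in direction, 2 of 9 being higher in knock-in leukaemias in c-kit-positive and 3 of 9 in c-kit-negative cells. In either fraction 1 of the 9 passed and was higher in knock-in leukaemias, and 0 passed and were lower. Of all genes tested, 0.141% and 0.0627% passed there. Mast cell, basophil and eosinophil markers in c-kit-positive cells were 5.15 to 5.33 in knock-in leukaemias, against 5.42 to 5.74 in wild-type leukaemias. Of the 9 tested there, 5 were nonetheless higher in knock-in leukaemias, the median difference was 0.004 and 0 passed. In c-kit-negative cells the genotypes overlapped, at 5.06 to 5.84. B cell markers lay at 5.63 to 6.25 and T and NK cell markers at 5.2 to 5.65, near the array medians of 5.56 to 5.71. The genotypes overlapped in c-kit-positive but not in c-kit-negative cells. There B cell markers were 5.74 to 6.25 in knock-in and 5.63 to 5.68 in wild-type leukaemias. T and NK cell markers were 5.47 to 5.65 and 5.3 to 5.4, and 0 of either list passed. Megakaryocyte markers in c-kit-positive cells were 6.25 to 6.28 in knock-in and 6.01 to 6.11 in wild-type leukaemias, and 0 passed. They overlapped in c-kit-negative cells. The part of cell mixture in the results below was not tested, and in bulk samples fewer cells of a type and less RNA per cell cannot be told apart.

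3 of the 10 genes were higher in c-kit-positive than in c-kit-negative cells over both genotypes, and none was lower. They were Gsto1, Gstm1 and Gclm, with folds of 1.48, 1.46 and 1.29. Of all genes tested, 8.25% passed in this comparison, and 5.84% passed and were higher. For Gsto1 it includes the c-kit-positive arrays of the genotype difference known beforehand. The median difference of the 10 genes was 0.26 on the log2 scale, against -0.03 over all genes tested, and 9 of the 10 differences were positive. Both fractions of a leukaemia share its number, and with the leukaemia as a block 6 of the 10 passed, against 19.6% of all genes tested. The added ones were Gclc (adjusted p = 0.00563), Gsr (adjusted p = 0.0146) and Txnrd1 (adjusted p = 0.0448). The c-kit-positive array was above the c-kit-negative one in all 6 leukaemias for 5 of the 10 genes (Gsto1, Gstm1, Gclc, Gclm and Txnrd1), and 13.0% of all genes tested did so.

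**Figure D1:**
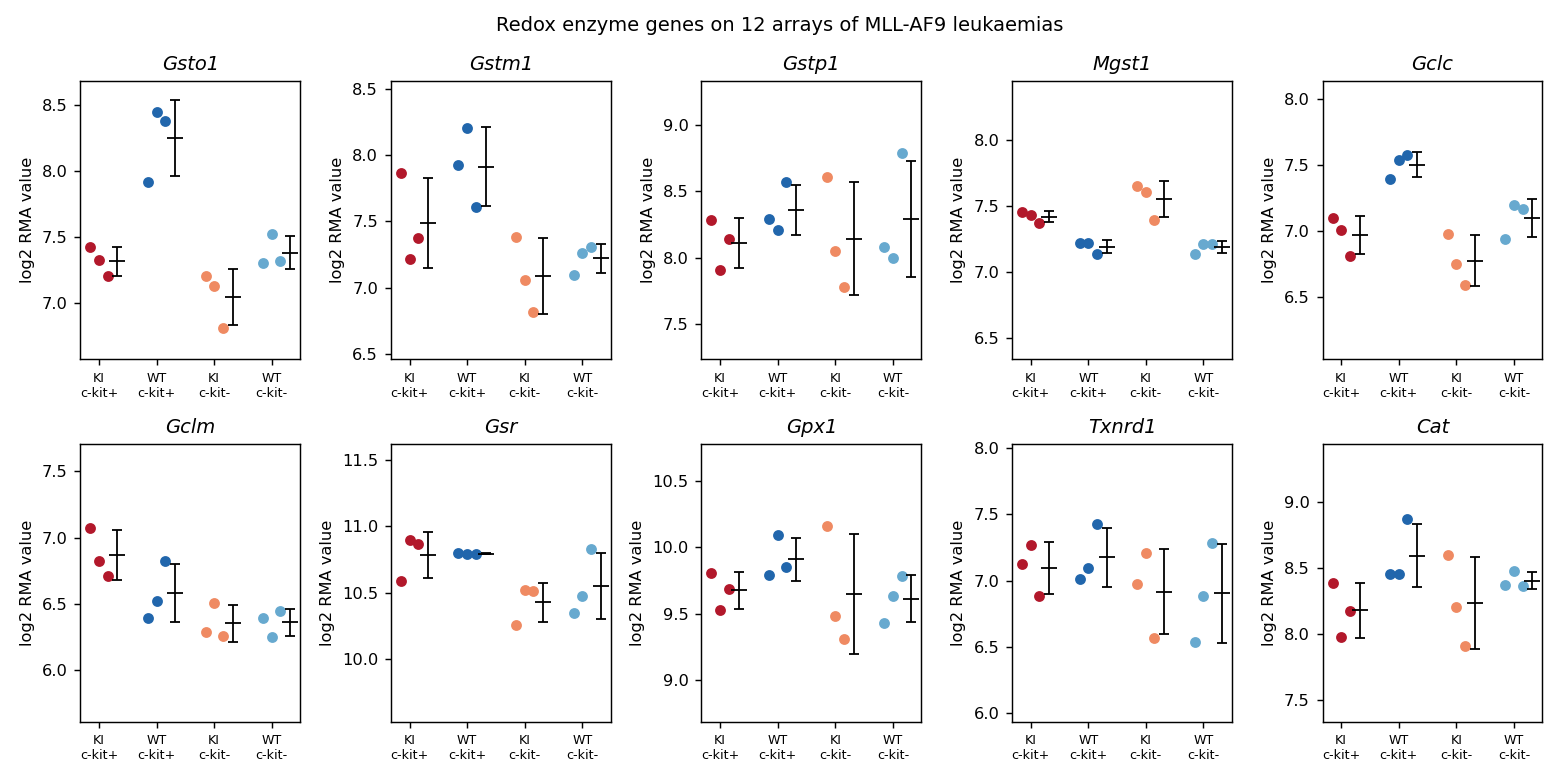
Log2 RMA value (vertical axes) of each of the 10 genes in the 4 groups (horizontal axes). Points are single arrays, in the order of leukaemia number within a group, and the bars are mean ± SD of 3 arrays. The panels span the same number of log2 units but start at different levels, since values of different probe sets are not comparable. Gsto1 lies at 7.92 to 8.45 in wild-type c-kit-positive cells, above every other array.

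Gsto1 encodes the omega-class transferase, an enzyme with thioltransferase and dehydroascorbate reductase activity. In leukaemias 81, 83 and 85 it had log2 values of 7.42, 7.33 and 7.20 in c-kit-positive cells, against 7.20, 7.13 and 6.81 in c-kit-negative cells. In leukaemias 73, 75 and 79 it had 7.92, 8.45 and 8.38 in c-kit-positive cells, against 7.30, 7.52 and 7.32 in c-kit-negative cells. The c-kit-positive value was the higher one in each of the 6 leukaemias, by 0.20 to 0.39 in knock-in and 0.62 to 1.06 in wild-type leukaemias. Over both genotypes the difference was 0.57 (SE 0.105, adjusted p = 0.00608), and it passed when any of the 6 leukaemias was left out. This difference includes the c-kit-positive arrays of the genotype difference known beforehand. Within knock-in leukaemias alone Gsto1 was 0.27 higher in c-kit-positive cells (SE 0.148, adjusted p = 0.505) and did not pass. The region upstream of its start is shown because a DNA methyltransferase acts on CpG dinucleotides, which the capitals mark. The run covers chr19:47854723-47854972 of GRCm38.p6, plus strand, 250 bases up to the transcript start, as given by RefSeq.
Gsto1: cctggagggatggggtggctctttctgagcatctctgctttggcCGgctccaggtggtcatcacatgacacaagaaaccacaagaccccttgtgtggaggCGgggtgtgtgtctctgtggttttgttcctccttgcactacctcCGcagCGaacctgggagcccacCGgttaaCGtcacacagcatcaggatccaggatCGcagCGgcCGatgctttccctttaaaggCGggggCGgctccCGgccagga
The 300-base window around this start held 16 CpG dinucleotides, against a median of 7 over 32851 promoter windows. Among the windows of the 10 genes, those of Gclm (48), Gstp1 (20) and 1 Txnrd1 start (27) held more, and the others held fewer. The observed over expected ratio of the Gsto1 window was 0.58, and 35.8% of all promoter windows had a ratio of at least 0.6. DNA methylation is not analysed here.

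Gstm1 encodes a mu-class transferase that conjugates glutathione to electrophiles. It had log2 values of 7.87, 7.22 and 7.38 in c-kit-positive cells of leukaemias 81, 83 and 85, against 7.39, 7.05 and 6.81 in their c-kit-negative cells. In leukaemias 73, 75 and 79 the values were 7.93, 8.21 and 7.61 in c-kit-positive cells, against 7.09, 7.26 and 7.31 in c-kit-negative cells. The fractions overlapped in knock-in leukaemias and not in wild-type leukaemias. The difference over both genotypes was 0.55 (SE 0.136, adjusted p = 0.0264), and it did not pass without leukaemia 73, 75, 83 or 85 (adjusted p of 0.126, 0.129, 0.0626 and 0.0544). Mu-class genes are close paralogues, and how far this probe set also reads other mu-class transcripts was not tested.

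The pi-class and the membrane-bound transferase did not pass between the fractions. Gstp1, the pi-class enzyme, ranged over 7.91 to 8.57 in c-kit-positive and 7.78 to 8.79 in c-kit-negative arrays. The fractions overlapped in both genotypes, and its difference was 0.02 with a 95% interval of -0.33 to 0.36. Another probe set annotated to both Gstp1 and its near copy Gstp2 was not used. Mgst1, a microsomal enzyme with transferase and peroxidase activity, differed by -0.06 with a 95% interval of -0.21 to 0.08.

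Glutamate-cysteine ligase catalyses the rate-limiting step of glutathione synthesis, with Gclc as its catalytic and Gclm as its modifier subunit. Gclm had log2 values of 7.07, 6.83 and 6.71 in c-kit-positive cells of leukaemias 81, 83 and 85, against 6.29, 6.51 and 6.26 in their c-kit-negative cells. In leukaemias 73, 75 and 79 it had 6.40, 6.52 and 6.82 in c-kit-positive cells, against 6.39, 6.25 and 6.44 in c-kit-negative cells. All 3 knock-in c-kit-positive arrays lay above the knock-in c-kit-negative ones, whereas the wild-type fractions overlapped. Over both genotypes Gclm was 0.37 higher (SE 0.094, adjusted p = 0.0299), and it passed without leukaemia 85 but not without any 1 of the other 5 (adjusted p of 0.0631 to 0.133).

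Gclc showed differences of 0.12 to 0.25 in the 3 knock-in and 0.34 to 0.46 in the 3 wild-type leukaemias, all with c-kit-positive cells above. Its difference over both genotypes was 0.30 (SE 0.087, adjusted p = 0.0517), on the other side of the threshold from Gclm. With the leukaemia as a block it passed, as given above, and it also passed without leukaemia 81 (adjusted p = 0.035).

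The windows before the starts of Gclm, Mgst1 and Txnrd1 are shown because they were the member promoters that held the core of the antioxidant response element, the motif that NRF2 binds. The core was searched on both strands as TGACNNNGC, and it is in capitals below, where it reads in the reverse sense. RefSeq gave a promoter window for 8 of the 10 genes, all but Gclc and Gsr, and 3 of these 8 held the core. Of all genes with a window, 14.0% held it in at least 1 window. The runs are the 250 bases before each start on the plus strand of GRCm38.p6: chr3:122245307-122245556 for Gclm, chr6:138140277-138140526 for Mgst1 and chr10:82858956-82859205 for 1 of the 3 Txnrd1 starts.
Gclm: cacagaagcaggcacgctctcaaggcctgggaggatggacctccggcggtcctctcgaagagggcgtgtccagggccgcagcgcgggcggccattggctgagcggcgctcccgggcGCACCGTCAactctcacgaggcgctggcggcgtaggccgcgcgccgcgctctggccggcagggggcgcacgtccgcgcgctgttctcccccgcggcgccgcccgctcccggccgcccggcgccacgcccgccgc
Mgst1: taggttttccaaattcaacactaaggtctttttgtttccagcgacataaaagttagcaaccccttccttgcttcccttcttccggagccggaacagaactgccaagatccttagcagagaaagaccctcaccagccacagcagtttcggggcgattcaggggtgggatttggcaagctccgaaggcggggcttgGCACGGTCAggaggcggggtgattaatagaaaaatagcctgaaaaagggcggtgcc
Txnrd1: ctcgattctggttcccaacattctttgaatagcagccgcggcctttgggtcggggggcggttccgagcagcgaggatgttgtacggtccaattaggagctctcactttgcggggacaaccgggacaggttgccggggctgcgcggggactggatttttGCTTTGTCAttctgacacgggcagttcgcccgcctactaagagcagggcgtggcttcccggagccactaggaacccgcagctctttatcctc
The leftmost base of the core, as printed, lay at -134, -56 and -92 from these starts. A window at another Mgst1 start held no core, and neither did the other Txnrd1 windows. The Gclm window held 48 CpG dinucleotides, more than 98.8% of all promoter windows. A match of letters is a description of the sequence and says nothing about binding, and in the fraction comparison Gclm passed, Txnrd1 passed with the block alone and Mgst1 did not pass.

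Among the enzymes that recycle or remove oxidants, none passed without the block. Gsr, glutathione reductase, had log2 values of 10.58, 10.89 and 10.87 in c-kit-positive cells of leukaemias 81, 83 and 85, against 10.26, 10.52 and 10.51 in their c-kit-negative cells. In leukaemias 73, 75 and 79 it had 10.80, 10.79 and 10.79 in c-kit-positive cells, against 10.35, 10.47 and 10.83 in c-kit-negative cells. The c-kit-positive value was higher in 5 of the 6 leukaemias, leukaemia 79 being the exception at -0.04. Its difference was 0.30 (SE 0.095, adjusted p = 0.0728), and it passed without leukaemia 79 (adjusted p = 0.0481) and with arrays centred on their median (adjusted p = 0.0493). Txnrd1, the cytosolic thioredoxin reductase, was above in all 6 leukaemias by 0.06 to 0.47, for a difference of 0.23 (SE 0.142, adjusted p = 0.368). Gpx1, a selenoenzyme that reduces hydrogen peroxide with glutathione, differed by 0.16 (95% interval -0.12 to 0.45). Cat, the peroxisomal catalase, differed by 0.07 (95% interval -0.20 to 0.33), with c-kit-positive cells above in 3 of 6 leukaemias.

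**Figure D2:**
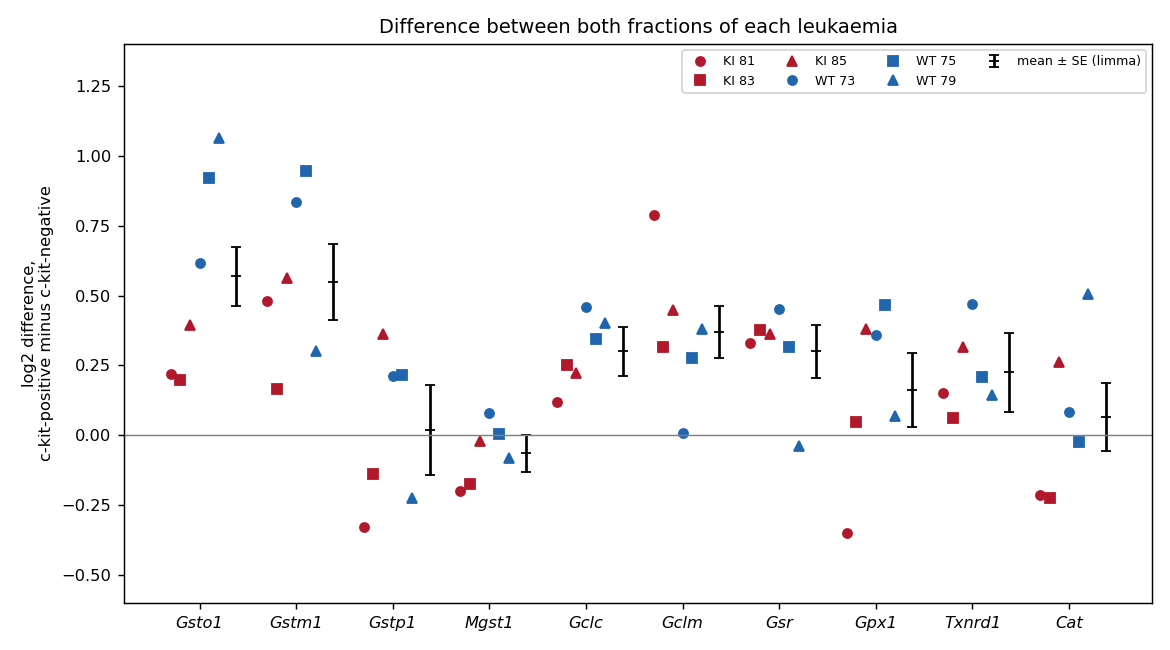
Log2 difference between the c-kit-positive and the c-kit-negative array of each leukaemia (vertical axis) for the 10 genes (horizontal axis). Coloured symbols are the 3 knock-in and 3 wild-type leukaemias, and black bars are the fitted mean ± SE over both genotypes. All 6 symbols lie above 0 for Gsto1, Gstm1, Gclc, Gclm and Txnrd1.

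Within one genotype fewer genes passed. In knock-in leukaemias 0 of the 10 passed, against 1.88% of all genes tested. Of the 19152 genes tested, 2420 had an unadjusted p under 0.05, and 2 of the 10 did. Gclm had the smallest of these p-values, with a difference of 0.52 (adjusted p = 0.0716), and with the leukaemia as a block it was the 1 gene of the 10 that passed (adjusted p = 0.0147), against 8.70% of all genes tested. In wild-type leukaemias 1 of the 10 passed, against 0.768% of all genes tested. It was Gsto1, 0.87 higher in c-kit-positive cells (SE 0.148, adjusted p = 0.021), and the call was lost without leukaemia 73, 75, 79 or 83 (adjusted p of 0.0649 to 0.217). This difference shares its c-kit-positive arrays with the genotype difference known beforehand. With the block 3 of the 10 passed in wild-type leukaemias, against 11.0% of all genes tested, Gstm1 (0.69, adjusted p = 0.0074) and Gclc (0.40, adjusted p = 0.0153) being the others. The difference between the genotypes in these fraction differences was tested as an interaction, which 0 of the 10 genes and 0% of all genes passed in limma, with 427 genes at an unadjusted p under 0.05. For Gsto1 the interaction was -0.60 (SE 0.21, adjusted p = 1.0), the only member with an unadjusted p under 0.05, and it includes the c-kit-positive arrays of the difference known beforehand.

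Knock-in leukaemias were set against wild-type leukaemias in each fraction and over the mean of both fractions. In c-kit-positive cells Gsto1 was 0.93 lower on the log2 scale in knock-in leukaemias (SE 0.148), 1.91-fold lower, and all 3 knock-in arrays (7.20 to 7.42) lay below the 3 wild-type arrays (7.92 to 8.45). It was 1 of 10 genes past the threshold there, beside 0.141% of all genes tested, and nothing is read from that count because this comparison was known when the genes were chosen. The other 9 did not pass in that comparison, and Gclc had a difference of -0.53 (SE 0.123), Gstm1 of -0.43 (SE 0.192) and Cat of -0.41 (SE 0.171). Mgst1 was at 0.23 (SE 0.095) and Gclm at 0.29 (SE 0.133), on the other side of 0.

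In c-kit-negative cells 0 of the 10 passed, against 0.0627% of all genes tested. Of the 19152 genes tested, 1168 had an unadjusted p under 0.05, and 3 of the 10 did. These were Mgst1 with 0.36 (adjusted p = 0.517), Gsto1 with -0.33 (adjusted p = 0.812) and Gclc with -0.32 (adjusted p = 0.787). Mgst1 had log2 values of 7.65, 7.61 and 7.39 in c-kit-negative cells of knock-in leukaemias 81, 83 and 85, against 7.14, 7.21 and 7.21 in wild-type leukaemias 73, 75 and 79. In c-kit-positive cells it had 7.45, 7.43 and 7.37 in the same knock-in leukaemias, against 7.22, 7.22 and 7.13 in the wild-type ones. The genotypes did not overlap in either fraction.

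Over leukaemia means 0 of the 10 passed, against 0.0261% of all genes tested. The genotypes did not overlap for 3 of the 10 genes, Gsto1 and Gclc being lower and Mgst1 higher in knock-in leukaemias, and 13.0% of all genes tested showed no overlap, counting both directions. The Gsto1 means include the c-kit-positive arrays whose difference was known. Gclc means were 7.04, 6.88 and 6.71 in knock-in leukaemias, against 7.17, 7.37 and 7.37 in wild-type leukaemias, a difference of -0.43 (SE 0.111, adjusted p = 0.33). Mgst1 means were 7.55, 7.52 and 7.38 in knock-in leukaemias, against 7.18, 7.22 and 7.17 in wild-type leukaemias, a difference of 0.30 (SE 0.084, adjusted p = 0.377). The exact two-sided permutation test over leukaemia means gave p = 0.1 for Gclc and for Mgst1, which is the smallest value that 3 against 3 allows. In the same comparison 2 of 15 late neutrophil markers rose in knock-in leukaemias, with a median difference of 0.72, and their part in the values of the 10 genes was not tested. Gstp1, Gsr, Gpx1 and Txnrd1 had differences of -0.20, -0.07, -0.10 and -0.04, each with a 95% interval that spans 0.

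**Figure D3:**
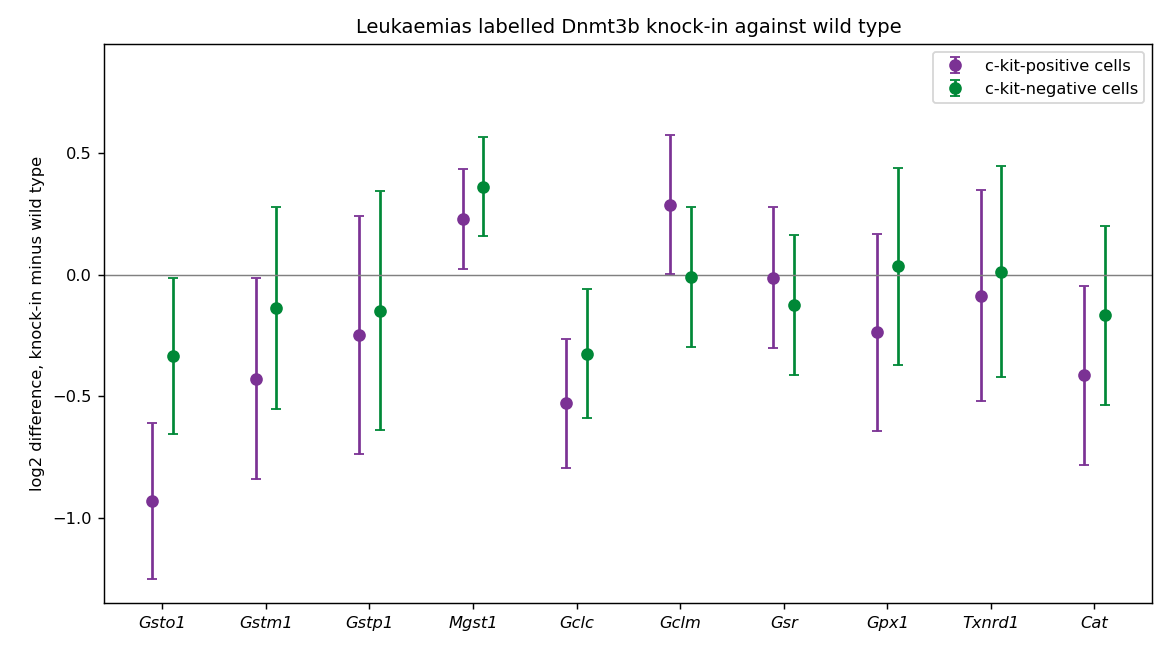
Log2 difference of leukaemias labelled Dnmt3b knock-in minus wild type (vertical axis) for the 10 genes (horizontal axis), in c-kit-positive and c-kit-negative cells. Points are fitted differences and bars are 95% intervals of single genes, with no adjustment for the number of genes. Gsto1 in c-kit-positive cells lies farthest from 0, at -0.93, and was known when the genes were chosen.

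Across the 12 arrays, which share groups and pairs, Gsto1 and Gclc had a Pearson r of 0.949 and Gsto1 and Gstm1 of 0.802, whereas Gsto1 and Mgst1 had -0.568. These are descriptions over samples that differ in fraction and genotype.

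Other genes of glutathione and oxidant handling were read from lists drawn up by function. The lists were chosen with earlier results of these data known, so their counts are descriptions. Their counts in this fraction comparison stand beside 8.25% of all genes tested, or 5.84% for genes that rose, and beside 19.6% with the leukaemia as a block. Of 21 other transferases and enzymes of the MAPEG family (membrane proteins of eicosanoid and glutathione metabolism), 0 rose and 1 fell in c-kit-positive cells, the leukotriene helper Alox5ap at -0.46 (adjusted p = 0.00235), with a list median of 0.03. With the leukaemia as a block 3 of these 21 passed, beside 19.6% of all genes tested. They were Alox5ap, which was lower in c-kit-positive cells, and Gstcd (0.27) and Gstm4 (0.305), which were higher. Of 16 genes of glutathione supply and glutaredoxins, 0 rose and 1 fell, Ggt5 at -0.31 (adjusted p = 0.0285), with a median of -0.01. With the block 4 passed, Abcc1 (0.27) and Glo1 (0.23) being higher and Ggt5 and Glrx (-0.32) lower. The Ggt5 call was lost without leukaemia 73, 75, 81 or 83.

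Of 20 peroxidases, superoxide dismutases and thioredoxin genes, 1 rose and 1 fell, with a median of 0.04. Prdx3, the mitochondrial peroxiredoxin, rose by 0.55 (adjusted p = 0.0432), and Txnip, which binds and restrains thioredoxin, fell by 0.53 (adjusted p = 0.00875). With the block 6 passed, Prdx2, Prdx3, Txn1 and Txn2 being higher and Gpx8 and Txnip lower. Of the list, 4 passed without leukaemia 81, 1 without leukaemia 79, 83 or 85 and 0 without leukaemia 73 or 75. Of 15 genes of the NRF2 pathway, 0 rose and 3 fell, with a median of -0.09. They were Hmox1, the heme-degrading oxygenase, at -0.86 (adjusted p = 0.00318), Fth1, the ferritin heavy chain, at -0.80 (adjusted p = 0.00272) and Osgin1 at -0.34 (adjusted p = 0.0281). With the block 5 passed, these 3 and Sqstm1 (-0.35) being lower and Cbr1 (0.26) higher. Nqo1 of this list did not pass the filter on low values. The list also leaves out the 10 genes, several of which are known NRF2 targets, and 9 of those 10 had positive differences. It therefore does not describe NRF2 targets as a whole.

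Of 13 genes of NADPH supply, 4 rose and 1 fell, with a median of 0.14, and 5 passed with the block, beside the shares of all genes given above. Idh2, the mitochondrial NADP-dependent isocitrate dehydrogenase, was 0.84 higher (adjusted p = 0.0211), and Nadk2, the mitochondrial NAD kinase, was 0.63 higher (adjusted p = 0.00188). Nnt, the transhydrogenase of the inner mitochondrial membrane, was 0.55 higher (adjusted p = 0.0421), and Mthfd1 of the folate cycle was 0.52 higher (adjusted p = 0.0303). Nadk, the cytosolic NAD kinase, was at -0.63 (adjusted p = 0.00634), so the cytosolic and the mitochondrial kinase differed in opposite directions. Without leukaemia 73, 75 or 83 the calls on Nadk and Nadk2 were the 2 that passed, and without leukaemia 79 Idh2 passed as well. Of 7 subunits of the phagocyte NADPH oxidase, 0 rose and 1 fell, Cybb at -0.56 (adjusted p = 0.0397), and that call was lost without leukaemia 73, 75, 81 or 83, with arrays centred on their median and with a robust trend in the variance. In the same comparison 8 of 15 late neutrophil and 4 of 12 monocyte markers fell and 8 of 9 primary granule markers rose.

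**Figure D4:**
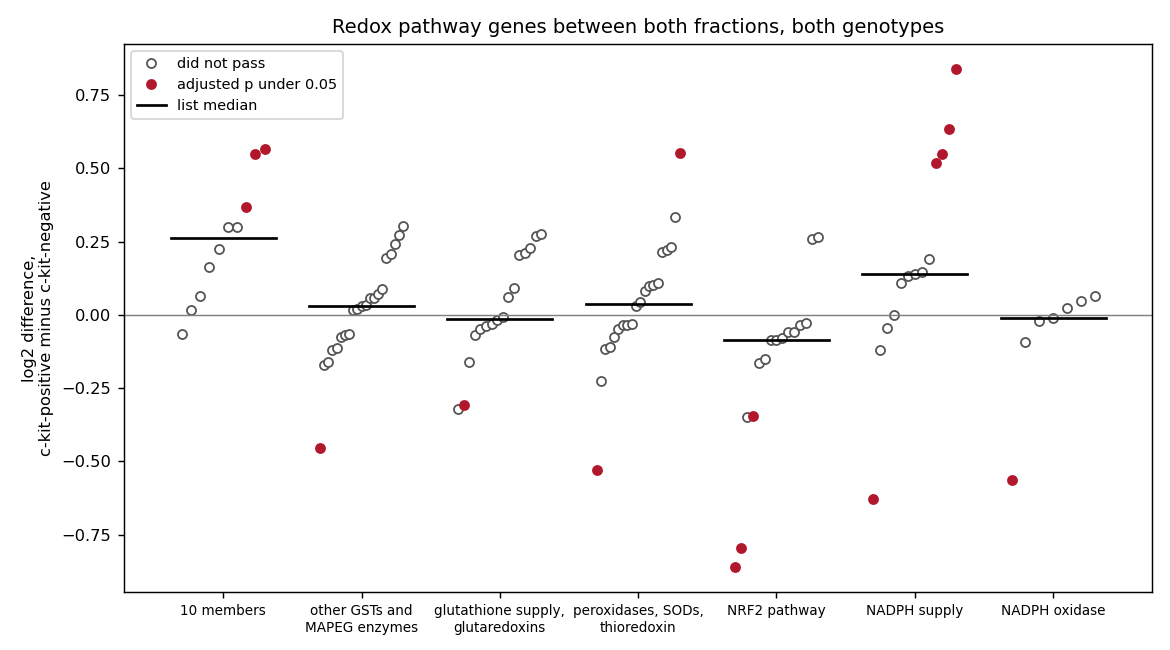
Log2 difference of c-kit-positive minus c-kit-negative cells over both genotypes (vertical axis) for the 10 genes and 6 lists of related genes (horizontal axis). Each point is 1 gene tested, filled where its adjusted p was under 0.05, and lines are medians. The NADPH supply list holds 4 filled points above 0 and 1 below.

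Between knock-in and wild-type leukaemias 0 genes of the 6 lists passed in c-kit-positive cells, against 0.141% of all genes tested, and 0 over leukaemia means, against 0.0261%. With the leukaemia as a block 1 gene of the lists passed over leukaemia means, Cybb, against 0.178% of all genes tested. Without leukaemia 81 Mthfd1 and Sod1 passed over leukaemia means, where 115 of all genes passed, against 5 with all 6 leukaemias. Mthfd1 was at -0.55 in knock-in against wild-type leukaemias over all 6 (SE 0.156, adjusted p = 0.377).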

How the data were processed

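RNA of 12 samples was measured on Affymetrix gene arrays. Per the submitters' processing notes, the authors made the deposited log2 values with RMA in Affymetrix Expression Console. Versions are not given in the sources used here. The table held 41345 probe sets and was used as deposited. A platform annotation gave 1 symbol for 23521 probe sets, several for 1814 and none for 16010, and 23328 of the 23521 matched a RefSeq gene.

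Where a gene had several probe sets, the one of highest mean was kept. Genes above the table's 25th percentile (log2 4.6052) on at least 3 arrays were tested. limma 3.58.1 in R 4.3.3 fitted 4 group means on 12 arrays. Genotype over both fractions was fitted on 6 leukaemia means. P-values were two-sided and adjusted by Benjamini-Hochberg over all genes tested, with a threshold of 0.05. The fits were tested on simulated data. The number of arrays limits the precision. Nothing in the labels says how leukaemias were replicated, so p-values measure the spread between these samples.

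Both fractions of a leukaemia share its number in the titles. Their deviations from the group means correlated at 0.279 to 0.601 in all 6 leukaemias, so the number was used as a block in an alternative (fixed for c-kit comparisons, random through statmod 1.5.0 for genotype, correlation 0.353). Other alternatives were no filter, median centring, repeated quantile normalization, the mean of probe sets, only the arrays compared, a robust trend and each leukaemia left out.

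The 10 genes, the lists and the markers were chosen with earlier results of these data known. Genes named from lists were those with the smallest p, up to 4 in the fraction comparison and 3 between genotypes, plus those past the threshold. The genes most like each of the 10 were the 3 with the highest Pearson r. Promoter sequences are from RefSeq, GRCm38.p6.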

Additional observations from a re-analysis of the deposited data

How the results depend on the processing

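Of 880 repeats of the 10 genes' differences under the alternatives, 851 kept their side of the threshold, 17 called differences no longer passed and 12 others passed, and 0 called differences changed sign. Another 42 differences that had not passed changed sign. Few differences were called to begin with: 3 over both genotypes, 1 in wild-type leukaemias and 1 between genotypes in c-kit-positive cells. Most of the 851 were therefore differences that passed in neither fit, and their number does not measure how stable the calls were. Each of the 10 had 1 probe set, so the mean of probe sets left their values unchanged. In the fraction comparison over both genotypes, the count of the 10 genes past the threshold was 6 with the replicate block and 1 to 3 when a leukaemia was left out (1 without leukaemia 73, 75 or 83). In knock-in leukaemias it was 1 with the replicate block and 1 after repeated quantile normalization. The same settings passed 1666 and 592 of all genes, against 360 in the fit used above. In wild-type leukaemias the count of the 10 was 3 with the block, 2 with only the arrays compared and 0 to 2 when a leukaemia was left out. Counts over all genes moved too, from 147 to 2109 with the block and 898 with only the arrays compared. They ran from 1 without leukaemia 73 to 662 without leukaemia 81. Between genotypes in c-kit-positive cells, where the Gsto1 difference was known beforehand and is a description, the count of the 10 was 0 to 1. It was 0 without leukaemia 75, 79, 83 or 85, where 3, 1, 0 and 22 of all genes passed, against 27 with all leukaemias. The block changed no call of the 10 genes between genotypes. Over all genes, the fraction comparison passed 1580, 3758 with the block, 1026 without leukaemia 79 and 503 to 568 without leukaemia 73, 75 or 83. Leave-outs fit fewer arrays, and the causes of the other changes were not tested. No scanner files were used here, so signal over background cannot be stated.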

Other observations

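Beyond the 10 genes, 3 genes of the related lists, Gstp3, Sod1 and Cybb, had genotype differences that did not pass but lay among the larger ones of those lists. Gstp3, another pi-class transferase gene, was at -0.97 in c-kit-positive cells of knock-in against wild-type leukaemias (SE 0.311, adjusted p = 0.285), where the genotypes overlapped. Over leukaemia means it was at -1.09 (SE 0.259, adjusted p = 0.304), with no overlap. How far its probe set also reads Gstp1 was not tested. Sod1, the cytosolic superoxide dismutase, was at -1.08 in c-kit-positive cells of knock-in against wild-type leukaemias (SE 0.2, adjusted p = 0.0692) and at -0.81 over leukaemia means (SE 0.126, adjusted p = 0.143), and the genotypes did not overlap in either. It passed in c-kit-positive cells after repeated quantile normalization, with only the arrays compared, or without leukaemia 81, and over leukaemia means without leukaemia 81. Cybb, the catalytic subunit of the phagocyte NADPH oxidase, was at 1.03 in c-kit-positive cells (SE 0.217, adjusted p = 0.103) and at 0.94 over leukaemia means (SE 0.189, adjusted p = 0.222), and the value over leukaemia means passed with the leukaemia as a block.

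The genes whose values over the 12 arrays were most like those of the 10 were named by Pearson r, which is a description of arrays that share groups and pairs. Gsto1 was closest to Pym1 (0.987), Tcf12 (0.968) and Ubxn8 (0.965). Gclc was closest to Mybbp1a (0.979), Prmt5 (0.978) and C1qbp (0.975). Gstm1 was closest to Snx12 (0.97), Uck1 (0.965) and Mir3088 (0.959). Mgst1 was closest to Csf3r (0.952), the receptor of a neutrophil growth factor, then to Sorl1 (0.937) and Cpne3 (0.929). Cat was closest to Tpp1 (0.958), Gpx3 (0.957) and Slc25a32 (0.954). Gclm was closest to Tbc1d8b (0.959), Ncoa5 (0.926) and Pcnt (0.922). Gpx1 was closest to Marchf5 (0.941), and for Gstp1, Gsr and Txnrd1 the highest values were 0.907 with Vta1, 0.907 with Nek2 and 0.903 with Slc38a10.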
